A study of Mus musculus with 6 samples.

Results

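The endothelial machinery that senses blood flow was followed in the injured mouse lung through 10 genes: Piezo1, Trpv4, Kcnj8, Abcc9, Cav1, Klf2, Klf4, Nos3, Pecam1 and Cdh5. They were chosen by symbol, because arrest of pulmonary flow is sensed by their products, from the 23194 genes of the deposited table. All 10 had enough reads to be tested. Each sample was the whole left lung of a wild-type adult C57BL/6 mouse, which is inbred. In the injured group (3 lungs) ligation of the artery to that lung for 4 h stopped its flow, and reperfusion lasted 24 h. The 3 lungs of the naive group were not described as operated on, so anaesthesia, thoracotomy and ischemia-reperfusion cannot be told apart. The general protocol gives 4 h or 5 h of ligation, whereas the design text gives 4 h.

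Endothelial cells read the drag of flowing blood with several devices. Stretch-gated and other cation channels let calcium in, potassium channels hold the membrane potential, and caveolae and a junctional complex of PECAM1, VE-cadherin and a VEGF receptor turn tension into kinase signals. Steady laminar flow keeps a kinase cascade active that ends at MEF2 transcription factors, which switch on Klf2 and Klf4. These factors favour an anticoagulant, anti-inflammatory endothelium and raise endothelial nitric oxide synthase, the product of Nos3. In the ventilated ischemic lung, loss of shear is known to close endothelial ATP-sensitive potassium channels and depolarise the cells.

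None of the 10 genes passed the test between injured and naive lungs (edgeR's quasi-likelihood test, Benjamini-Hochberg adjusted p under 0.05 over 15486 genes). Of all genes tested, 3.11% passed, 2.16% as higher and 0.956% as lower. At an unadjusted p under 0.05, 4 of the 10 stood lower and 0 higher, against 7.66% of all genes lower and 16.7% in either direction. These were Klf2, Klf4, Abcc9 and Pecam1. In 4 of the 10 (Klf2, Abcc9, Pecam1 and Cdh5) every injured lung lay below every naive lung, as in 10.6% of all genes tested; 0 of the 10 showed the opposite order, against 12.3% of all genes. The median log2 fold change of the 10 was -0.17, against -0.00096 over all genes tested. DESeq2 called Klf2 and Klf4 lower and no other of the 10, where it called 2.69% of genes lower. Limma-voom called 0 of the 10, with 0.878% of genes lower. The authors' deposited table has the same 2 genes below an adjusted p of 0.05, both lower, where 2.54% of its genes are lower.

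**Figure D1:**
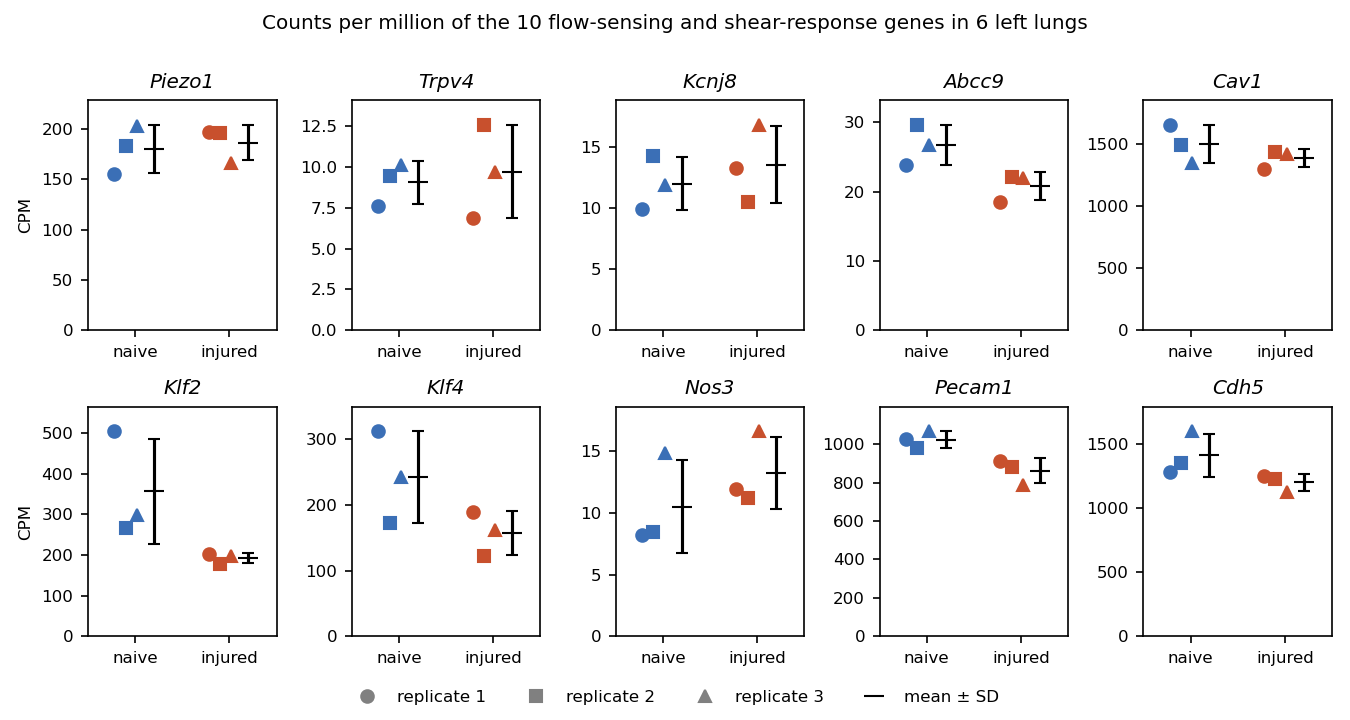
CPM (counts scaled to library size, vertical axes from 0) of each gene in the 3 naive and 3 injured left lungs, with symbols for the replicate number and bars for mean ± SD. Klf2, Abcc9, Pecam1 and Cdh5 are lower in every injured lung than in every naive lung; naive replicate 1 is the highest library for Klf2, at 504 CPM, and for Klf4, at 312 CPM.

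Per length, on the deposited FPKM scale, the 10 genes spanned a wide range of levels in the naive lungs. Cav1 led with 543 ± 63.0 FPKM (SD, n = 3), followed by Cdh5 with 351 ± 35.9, Pecam1 with 296 ± 9.64, Klf2 with 192 ± 71.4 and Klf4 with 79.7 ± 23.3. Piezo1 held 21.8 ± 2.58, and the remaining genes were scarce: Kcnj8 at 5.44 ± 0.99, Abcc9 at 3.52 ± 0.38, Trpv4 at 2.79 ± 0.37 and Nos3 at 2.52 ± 0.86. Only Trpv4 and Nos3 were neighbours in this order whose ranges overlapped. In the injured lungs the first 7 places were the same, from Cav1 at 507 ± 27.7 to Kcnj8 at 6.21 ± 1.44. The last 3 then ran Nos3 at 3.22 ± 0.71, Trpv4 at 3.03 ± 0.89 and Abcc9 at 2.78 ± 0.27, with overlapping ranges.

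Total counts were 18913487 to 34986276 in naive and 20062818 to 23638078 in injured lungs. All 19 pan-endothelial markers (such as Tie1, Erg, Emcn and Robo4; Pecam1 and Cdh5 left out) were expressed in every library, and 0 passed the test in either direction by edgeR, DESeq2 or limma-voom, with 1, Calcrl, at an unadjusted p under 0.05. Their median log2 fold change was -0.01, and their summed level was 7907 to 8353 CPM in the naive group and 7540 to 8737 CPM in the injured group. Ptprb, a vascular phosphatase, and Calcrl, an adrenomedullin receptor, were the most abundant, at 1618 ± 175 and 1392 ± 142 CPM in the naive group and 1573 ± 188 and 1696 ± 157 CPM in the injured group. Neutrophil markers summed to 71.0 to 101 CPM in the naive group and 787 to 1425 CPM in the injured group, and 7 of 11 rose, among them Ly6g, with a log2 fold change of 4.91 ± 0.61 (SE). Of 9 monocyte and macrophage markers measured 7 rose, led by Itgam, which neutrophils also express, while 5 of 10 T cell markers fell, led by Themis. Csf1r, the most abundant of the 9, stood at 144 ± 12.6 CPM in the naive group and 151 ± 18.4 CPM in the injured group. Its groups overlapped (edgeR adjusted p 0.835). With 1 library left out, 4 to 8 neutrophil markers rose (4 without naive replicate 1 or 3), 3 to 5 monocyte and macrophage markers rose (3 without naive replicate 1, 4 without naive replicate 2 or injured replicates 1 or 2), and 2 to 4 T cell markers fell (2 without naive replicates 1 or 2 or injured replicate 1, 3 without naive replicate 3 or injured replicate 3). The call of Themis was lost without naive replicates 1 or 2 or injured replicates 1 or 3 (edgeR adjusted p 0.0516 to 0.113). What part these marker shifts have in the values of the 10 genes was not tested. In whole-lung RNA, fewer cells of a type and less RNA per cell cannot be told apart.

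For neither sensing channel did the groups differ beyond the spread between lungs. Piezo1 (chromosome 8, 122481698 to 122551329, minus strand, mm10) encodes a large cation channel opened by membrane tension. Its level was 155, 183 and 202 CPM in the naive lungs and 197, 196 and 166 CPM in the injured lungs, so the groups overlapped widely. The log2 fold change was 0.05 ± 0.12 (SE), with a 95% confidence interval from -0.21 to 0.31 and an adjusted p of 0.886. In the annotation used here, exons of Piezo1 share 2441 bases with Ctu2 on the other strand. Whether counting used strand is not given in the sources used here. Ctu2 held 1663 counts over the 6 libraries against 27308 for Piezo1.

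Trpv4 (chromosome 5, 114622152 to 114658421, minus strand) encodes a calcium channel of endothelium and epithelium that responds to swelling, shear and lipid messengers. It was scarce, at 7.60, 9.47 and 10.1 CPM in the naive group and 6.90, 12.6 and 9.70 CPM in the injured group. Injured replicate 2 was the highest and injured replicate 1 the lowest of all 6, and the log2 fold change was 0.10 ± 0.22 (95% interval -0.39 to 0.60, adjusted p 0.874).

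Of 20 other flow and stretch sensors, 0 passed the test in either direction by edgeR, DESeq2 or limma-voom, and their median log2 fold change was -0.05. The most abundant were Itgb1, the common beta chain of matrix-binding integrins, at 1138 ± 105 CPM in the naive group and 1056 ± 89.1 CPM in the injured group, and Pkd1, a polycystin of mechanosensing complexes, at 405 ± 9.46 and 339 ± 31.2 CPM. Pkd1 was lower in every injured lung (log2 fold change -0.26 ± 0.09, adjusted p 0.206). At an unadjusted p under 0.05 there were also Piezo2 and Trpv2, named after their values were seen. Piezo2, the paralogue of Piezo1 best known from touch and airway sensory neurons, stood at 64.8, 64.7 and 110 CPM in the naive group and 51.1, 54.5 and 55.1 CPM in the injured group (-0.58 ± 0.20, adjusted p 0.215). Trpv2, a cation channel also found in macrophages, stood at 17.6, 18.2 and 21.2 against 25.4, 24.8 and 23.7 CPM (0.37 ± 0.11, adjusted p 0.119). The signs of Piezo2 and Trpv2 were opposite, and both missed the threshold.

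Kcnj8 and Abcc9 encode the pore and the regulatory sulfonylurea receptor of the vascular ATP-sensitive potassium channel. They are neighbours on chromosome 6 and on the same strand, Kcnj8 at 142564939 to 142571356 and Abcc9 at 142587862 to 142702274, with 16505 bases between them. Both are also well expressed by pericytes and smooth muscle. Kcnj8 had 9.88, 14.2 and 11.9 CPM in the naive group and 13.3, 10.5 and 16.8 CPM in the injured group, overlapping groups with a log2 fold change of 0.18 ± 0.20 (95% interval -0.26 to 0.62, adjusted p 0.719). Abcc9 had 23.9, 29.6 and 26.7 CPM in the naive group and 18.5, 22.1 and 21.9 CPM in the injured group. All injured lungs were below all naive lungs, by 21.9% on the fitted means, but the difference did not pass the test (-0.36 ± 0.12, 95% interval -0.63 to -0.09, adjusted p 0.169). Exons of Abcc9 share 158 bases with 5330439B14Rik on the other strand, which was not analysed here. The ratio of Kcnj8 to Abcc9 FPKM was 1.43, 1.65 and 1.53 in naive and 2.48, 1.64 and 2.64 in injured lungs. Injured replicates 1 and 3 were above all naive lungs and injured replicate 2 lay among them (exact two-sided permutation p 0.2, where 3 against 3 allows no less than 0.1).

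The mural cells that share this channel were set beside it. For comparison with the counts below, 2.16% of all genes tested rose and 0.956% fell. Of 10 pericyte markers, 1 rose (Lamc3, a laminin chain, log2 fold change 0.80) and 1 fell (Postn, a matrix protein also made by fibroblasts, -0.96), and their median was -0.07. The summed level of the pericyte markers was 1118 to 1408 CPM in the naive group and 928 to 1080 CPM in the injured group. Postn alone held 485, 563 and 667 CPM of it in the naive group and 310, 266 and 303 CPM in the injured group. The mean log2 level of the 10 markers, in which each gene weighs the same, differed by 0.03, with overlapping groups. Pdgfrb, a receptor gene used here as a pericyte marker, stood at 255 ± 30.9 and 230 ± 11.01 CPM (adjusted p 0.542). Among 8 smooth muscle markers 1 fell (Actg2, -0.82) and 0 rose, and all 8 log2 fold changes were negative with a median of -0.38. The most abundant were Acta2, at 204 ± 19.3 CPM in the naive and 163 ± 66.7 CPM in the injured group, and Myh11, at 203 ± 35.9 and 160 ± 3.55 CPM. Neither passed (edgeR adjusted p 0.633 and 0.186), and the groups of Acta2 overlapped. Without injured replicate 3 edgeR called Acta2 lower (adjusted p 0.00877). The call of Actg2 was lost without naive replicate 2 (edgeR adjusted p 0.0570) or injured replicate 1 (0.0586). Relative to the mean of the pericyte markers of the same library, Abcc9 was lower in each injured lung, by 0.39 on the log2 scale. Kcnj8 differed from the same reference by 0.14, with overlapping groups, and by -0.01 when the median of the markers was the reference. The other ATP-sensitive channel subunits, Abcc8 and Kcnj11 of pancreatic and cardiac type, were near or below 1 CPM, at 0.954 ± 0.242 and 0.725 ± 0.258 CPM in the naive group and 0.638 ± 0.215 and 0.811 ± 0.470 CPM in the injured group. Neither passed by edgeR, DESeq2 or limma-voom, and neither had an unadjusted p under 0.05. Heart muscle markers were also present, with summed levels of 535 to 978 CPM in the naive group and 151 to 743 CPM in the injured group. Their part in the channel values was not tested.

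Cav1 (chromosome 6, 17306335 to 17341452, plus strand) encodes caveolin, the coat protein of caveolae, which in lung line both endothelium and alveolar type 1 cells. Its level was 1653, 1492 and 1349 CPM in the naive group and 1300, 1438 and 1423 CPM in the injured group. The groups overlapped and the log2 fold change was -0.11 ± 0.11 (95% interval -0.35 to 0.13, adjusted p 0.674). Among 8 caveola partners 1 rose and 0 fell, where 2.16% of all genes tested rose and 0.956% fell. The riser was Prkcdbp (also called Cavin3), a coat adaptor, from 55.3 ± 4.31 to 74.4 ± 5.89 CPM (0.43 ± 0.10, edgeR adjusted p 0.0494). That call is at the threshold: without any 1 library its adjusted p was 0.0507 to 0.162, limma-voom gave 0.0579, and DESeq2's size factors in edgeR gave 0.0530. Sdpr (Cavin2), a more abundant adaptor named after its value was seen, had 1054, 1039 and 867 CPM in the naive group and 782, 814 and 609 CPM in the injured group (-0.42 ± 0.13, adjusted p 0.138). DESeq2 called it lower, with an adjusted p of 0.0343. Ager and Clic5, alveolar type 1 genes, stood at 2042 ± 224 and 1523 ± 62.9 CPM in the naive group and 1969 ± 198 and 1493 ± 65.9 CPM in the injured group. Of 8 markers of that cell type 1 fell (Cldn18, -0.53) and 0 rose. The call of Cldn18 was lost without naive replicates 1 or 2 or injured replicates 2 or 3 (edgeR adjusted p 0.0701 to 0.115).

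The junctional pair was lower in every injured lung by a small margin. Pecam1 (chromosome 11, 106654217 to 106750628, minus strand), an adhesion receptor of endothelium, platelets and leukocytes, had 1024, 980 and 1066 CPM in the naive group and 912, 882 and 789 CPM in the injured group. The log2 fold change was -0.25 ± 0.10 (95% interval -0.47 to -0.03, adjusted p 0.233). Cdh5 (chromosome 8, 104101625 to 104144502, plus strand) encodes VE-cadherin, the adhesion molecule that holds endothelial cells together. It had 1276, 1351 and 1595 CPM in the naive group and 1248, 1223 and 1123 CPM in the injured group (-0.23 ± 0.11, 95% interval -0.48 to 0.02, adjusted p 0.337). For both genes the groups did not overlap, and the fitted means differed by 15.8% for Pecam1 and 14.9% for Cdh5. The ratio of Pecam1 to Cdh5 FPKM was 0.85 ± 0.08 in naive and 0.83 ± 0.02 in injured lungs.

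Partners at the junction gave 0 calls among 17 genes by edgeR, DESeq2 and limma-voom, and 0 had an unadjusted p under 0.05. Of the 17 log2 fold changes 15 were negative, with a median of -0.10. Ctnnb1, the beta-catenin that ties VE-cadherin to the cytoskeleton, stood at 1080 ± 137 CPM in the naive group and 916 ± 48.5 CPM in the injured group (-0.24 ± 0.11, adjusted p 0.332). Kdr, the VEGF receptor of the flow-sensing complex, named for that role, stood at 653, 614 and 550 against 565, 552 and 386 CPM. The groups overlapped, and its adjusted p was 0.399.

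**Figure D2:**
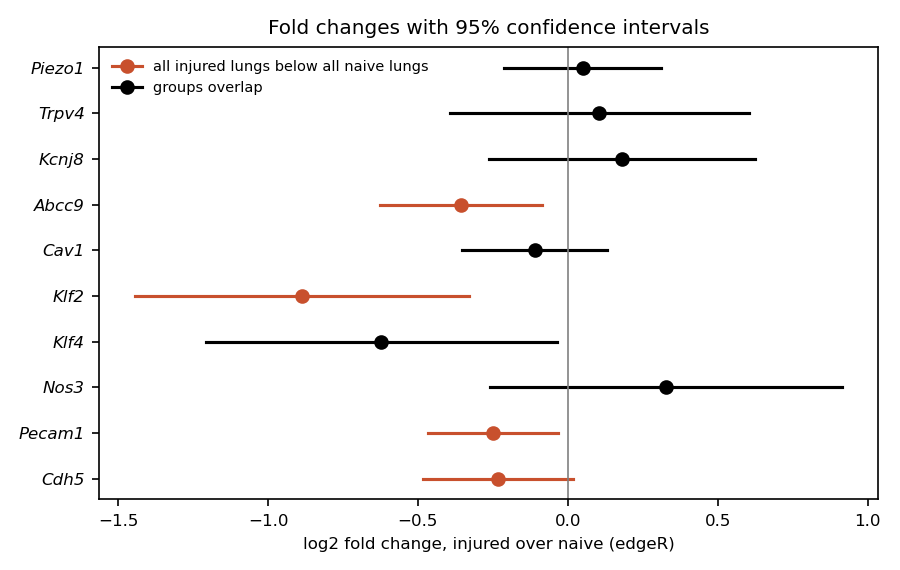
Log2 fold change of each gene, injured over naive, from edgeR (horizontal axis; points are estimates and lines 95% confidence intervals, n = 3 per group). The interval of Klf2 runs from -1.44 to -0.33 and that of Piezo1 from -0.21 to 0.31; none of the 10 passed after adjustment over all genes.

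The log2 fold change largest in size among the 10 genes was that of Klf2, the transcription factor that laminar flow induces in endothelium and that T cells also use to stay quiescent. Klf2 lies on chromosome 8, 72319033 to 72321656, plus strand, and Klf4, its relative with overlapping targets, on chromosome 4, 55527143 to 55532466, minus strand. The sequences upstream of both genes are shown because flow signals reach Klf2 through MEF2 factors at its promoter. They are from RefSeq (GRCm38.p6), 5′ to 3′ on the strand of the gene, with a match to the MEF2 consensus in capitals. The Klf2 stretch is chr8:72318812-72319032, 221 bases that end just before the gene of the deposited table, so that 29 bases nearer the RefSeq start were left out. The Klf4 stretch is chr4:55532476-55532725, 250 bases.
Klf2: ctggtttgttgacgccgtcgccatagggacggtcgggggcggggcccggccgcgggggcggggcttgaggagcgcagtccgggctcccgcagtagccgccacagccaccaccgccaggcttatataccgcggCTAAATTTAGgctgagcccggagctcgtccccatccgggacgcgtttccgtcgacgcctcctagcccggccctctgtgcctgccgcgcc
Klf4: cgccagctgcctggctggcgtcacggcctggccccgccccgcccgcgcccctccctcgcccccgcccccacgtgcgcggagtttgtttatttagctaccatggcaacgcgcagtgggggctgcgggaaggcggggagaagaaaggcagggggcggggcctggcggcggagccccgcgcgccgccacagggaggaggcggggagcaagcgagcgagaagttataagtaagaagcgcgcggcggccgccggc
The Klf2 match starts 118 bases before the RefSeq start and reads as the consensus on both strands. A search for the MEF2 consensus on both strands found it in 3.187% of 32851 promoter windows of 300 bases (250 before and 50 after the start). Promoter windows were matched for 7 of the 10 genes, 8 windows in all, and 2 held the consensus, in Klf2 and Abcc9. CACCC, the core bound by KLF factors, was in 6 of the 8 windows and in 57.52% of all, and in Abcc9 1 such match shares 1 base with the MEF2 match. GAGACC, known as a shear stress response element, was in 1 of the 8 (Piezo1) and in 16.41% of all. The Klf4 window held none of these motifs. These matches describe sequence only.

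Klf2 had 504, 267 and 299 CPM in the naive group and 203, 178 and 197 CPM in the injured group. Every injured lung was below every naive lung, the mean going from 357 ± 129 to 193 ± 13.0 CPM, and naive replicate 1 stood well above the other naive lungs. The log2 fold change was -0.89 ± 0.24 (95% interval -1.44 to -0.33) and the adjusted p 0.115 by edgeR, which did not pass. DESeq2 gave an adjusted p of 0.000614, limma-voom 0.120, and the authors' deposited table a log2 fold change of -0.74 with an adjusted p of 0.000389. Without naive replicate 1 the log2 fold change was -0.56 and passed, with an edgeR adjusted p of 0.0343, where 0.834% of genes were called lower. Over all alternatives the edgeR, DESeq2 and limma-voom log2 fold changes ran from -1.06 to -0.56, and the adjusted p from 0.000614 to 0.281. The direction was negative under each of the 13 alternatives. T cell markers, whose cells also express Klf2, summed to 115 to 121 CPM in the naive group and 65.3 to 72.3 CPM in the injured group, and their part in the Klf2 values was not tested.

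Klf4 had 312, 173 and 243 CPM in the naive group and 189, 122 and 162 CPM in the injured group. The groups overlapped, since injured replicate 1 was above naive replicate 2. The log2 fold change was -0.62 ± 0.25 (95% interval -1.21 to -0.04, edgeR adjusted p 0.268). DESeq2 gave an adjusted p of 0.0476, limma-voom 0.288, and the authors' deposited table -0.51 with 0.0408. Without naive replicate 1 the edgeR value was -0.41, with an adjusted p of 0.445. The ratio of Klf2 to Klf4 FPKM was 2.40 ± 0.33 in naive and 2.05 ± 0.32 in injured lungs (exact two-sided permutation p 0.2).

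Naive replicate 1 also stood apart in immediate early genes, which cells switch on within minutes of handling, stretch or growth signals. Of 16 such genes 14 were highest in that library (87.5%), against 17.1% of all genes tested. Dusp1, a phosphatase that ends kinase signals, had 608, 186 and 237 CPM in the naive group and 192, 124 and 112 CPM in the injured group. Fos had 94.7, 28.5 and 36.0 against 35.2, 22.4 and 25.6 CPM, Nr4a1 had 85.9, 27.9 and 31.5 against 31.1, 14.7 and 17.5 CPM, and Egr1 had 140, 73.9 and 37.5 against 56.8, 17.9 and 26.5 CPM (all 4 named after their values were seen). The first naive value was the highest of the 6 in each of them, as in Klf2 and Klf4. The median log2 fold change of the 16 genes was -0.53, and -0.24 without naive replicate 1. Of the 16, 0 rose and 1 fell, Ctgf, a matrix protein gene that answers to tension, from 194 ± 19.1 to 75.6 ± 19.3 CPM (-1.36 ± 0.18, edgeR adjusted p 0.00673). Its highest library was naive replicate 2. The part of this early response in the Klf2 and Klf4 values was not tested.

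**Figure D3:**
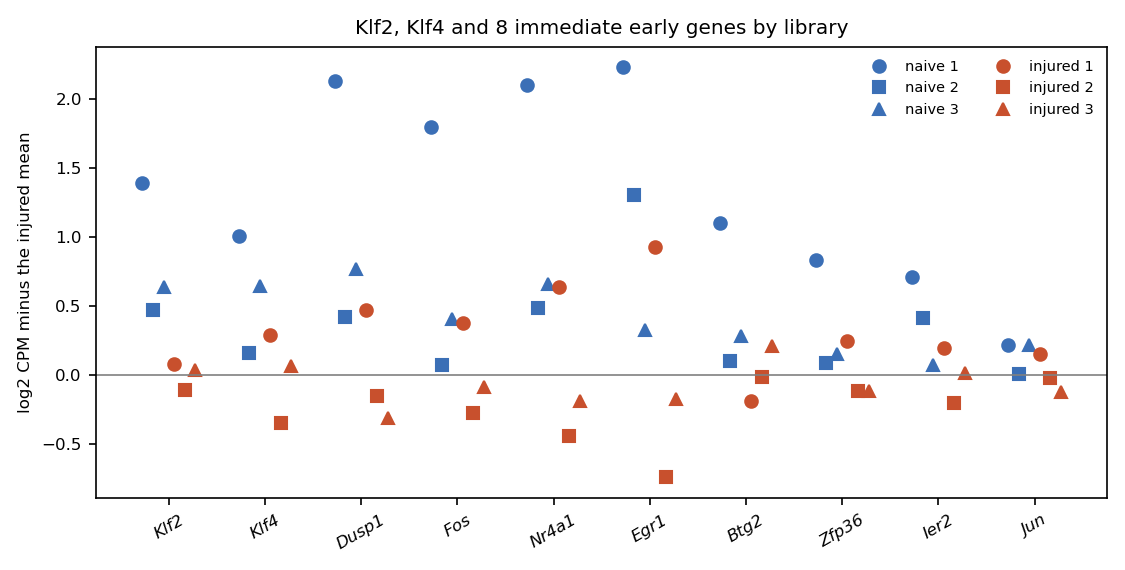
Log2 CPM of Klf2, Klf4 and 8 immediate early genes in each library, minus the mean of the 3 injured lungs (vertical axis). Blue symbols are naive and orange symbols injured lungs; naive replicate 1 (blue circles) is the highest for Klf2, Klf4, Dusp1, Fos, Nr4a1 and Egr1.

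Patterns over the 6 libraries were compared for 4 of the genes with 10061 genes of 10 CPM or more, by the root mean square distance of centred log2 CPM values. The genes most like Klf2 were Ppp1r15a, a stress-induced phosphatase subunit (0.151), Unc5c, a netrin receptor (0.195), and G0s2, a lipase inhibitor (0.209). Those most like Cdh5 were Rassf3 (0.0252), Rbm39 (0.0332) and Sf1 (0.0339). For Piezo1 they included Foxa2 (0.0235) and Fpgs (0.0297), and for Kcnj8 they were Praf2 (0.0850), Tmem261 (0.0896) and Snai1 (0.0975). The distances of Klf2 to its nearest genes were the longest of the 4. The values were centred but not scaled, so a gene that varies more between libraries can lie farther from all others. Ppp1r15a shares the high first naive value of Klf2 (94.0, 59.3 and 61.8 CPM in the naive group, 48.6, 44.7 and 48.5 CPM in the injured group).

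Relative to the 19 pan-endothelial markers of the same library, 4 genes were lower in every injured lung than in every naive lung. They are the same 4 whose groups did not overlap in CPM, and the mean log2 level of the reference differed by only -0.04. The share of all genes on this relative measure was not taken. Klf2 differed by -0.79 on the log2 scale, Abcc9 by -0.32, Pecam1 by -0.21 and Cdh5 by -0.19. For Klf2 the relative values were 0.96, 0.05 and 0.16 in naive and -0.41, -0.51 and -0.29 in injured lungs. Each of these 4 had an exact two-sided permutation p of 0.1, the smallest that 3 against 3 lungs allow, so that none could pass 0.05 in this family of 12 comparisons. With the median of the markers as reference the p of Abcc9 and of Cdh5 became 0.2. Klf4 differed by -0.57, Nos3 by 0.41, Kcnj8 by 0.20, Trpv4 by 0.11, Piezo1 by 0.09 and Cav1 by -0.07, all with overlapping groups. Klf2 over Cdh5 on the FPKM scale was 0.852, 0.426 and 0.405 in naive and 0.351, 0.315 and 0.379 in injured lungs, again without overlap.

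**Figure D4:**
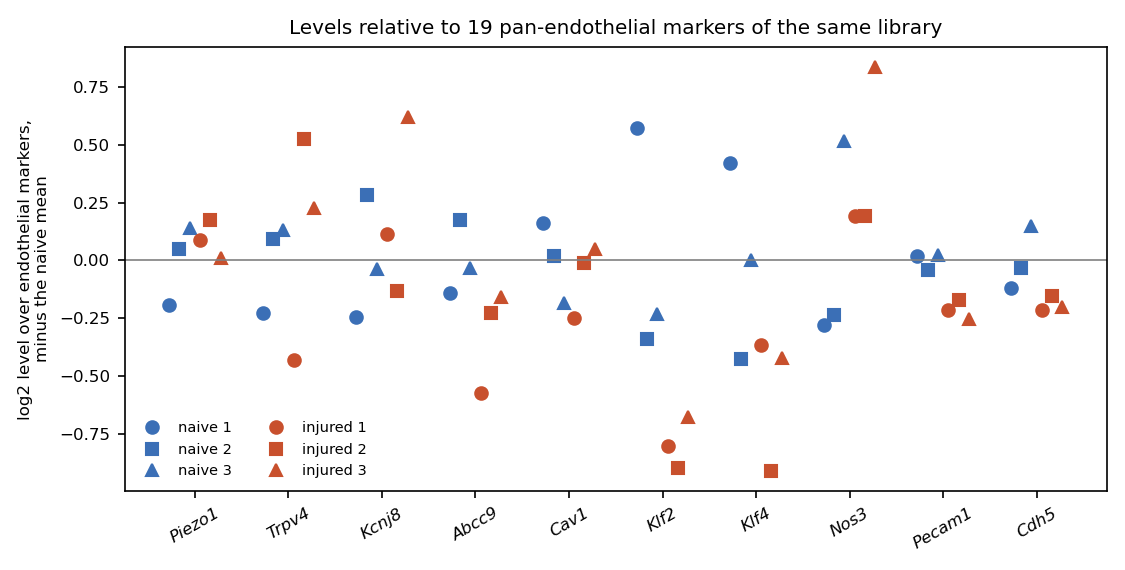
Log2 level of each gene relative to the mean of 19 pan-endothelial markers of the same library, with the naive mean set to 0 (vertical axis), in 3 naive (blue) and 3 injured (orange) lungs. The injured lungs lie below all naive lungs for Klf2, Abcc9, Pecam1 and Cdh5.

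The signalling genes upstream of Klf2 and Klf4 (the kinase cascade to MEF2, its repressors and the cerebral cavernous malformation complex) showed no called gene among 14 by edgeR, DESeq2 or limma-voom, with a median of -0.08. The most abundant were Heg1, a receptor of that complex, at 698 ± 159 CPM in the naive group and 543 ± 27.9 CPM in the injured group (-0.36 ± 0.15, adjusted p 0.273), and Mef2a at 233 ± 9.80 and 218 ± 14.9 CPM. Heg1 and Mef2d, the latter named after its value was seen (-0.21 ± 0.08, adjusted p 0.229), were the 2 with an unadjusted p under 0.05.

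Of the other Klf factors, 13 of 15 listed were measured and tested, all 13 log2 fold changes were negative, and 1 fell. Their median was -0.26. Of all 15486 genes tested, 7775 had a negative value and 0.956% fell. Of the 13 Klf factors, 12 were negative by limma-voom and with the replicate number as a block. With 1 library left out, 10 to 13 were negative (10 without naive replicate 3). The one that fell was Klf9, a factor induced by glucocorticoids and the circadian clock, from 309 ± 2.92 to 203 ± 34.6 CPM (-0.60 ± 0.12, edgeR adjusted p 0.0288). Its naive values were 312, 306 and 308 CPM and its injured values 166, 210 and 234 CPM. Its adjusted p was above the threshold, 0.0589 to 0.113, without any 1 library except injured replicate 3. Klf7, named after its value was seen, stood at 70.1 ± 1.74 and 54.2 ± 3.67 CPM (-0.37 ± 0.09, adjusted p 0.0514). It was called lower by DESeq2 (0.00801), and by edgeR with DESeq2's size factors (0.0482), without the filter on low counts (0.0429) and with a filter of 1 CPM in 3 libraries (0.0484). Naive replicate 1 was the highest library for Klf9, by a small margin, and not for Klf7. The part of the early response in the Klf7 and Klf9 values was not tested.

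Of 9 genes that Klf2 and Klf4 are known to raise in endothelium 2 fell and 0 rose, where 0.956% of all genes tested fell, and their median was -0.17. Thbd, thrombomodulin, the endothelial anticoagulant receptor, fell from 1432 ± 182 to 939 ± 110 CPM (-0.61 ± 0.13, edgeR adjusted p 0.0331). Its values were 1283, 1379 and 1634 CPM in the naive group and 823, 951 and 1042 CPM in the injured group. Nov (also called Ccn3), a matricellular protein, fell from 16.1 ± 2.95 to 9.18 ± 1.34 CPM (-0.80 ± 0.18, edgeR adjusted p 0.0403). The call of Thbd was lost in 4 of the 6 fits that leave out a library (naive replicates 2 and 3, injured replicates 1 and 2), with adjusted p values of 0.0612 to 0.139. That of Nov was lost by limma-voom (0.0732) and without any 1 library except naive replicate 3 (0.0592 to 0.172). Aqp1, a water channel of lung capillaries, was lower in each injured lung (-0.38 ± 0.11, adjusted p 0.0971; DESeq2 0.0103). Gja5, an arterial gap junction gene, was higher in each injured lung, at 30.8, 40.9 and 49.2 against 85.2, 56.4 and 50.03 CPM (0.66 ± 0.25, adjusted p 0.239; DESeq2 0.0458). These 2 were named after their values were seen.

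Of 7 genes that Klf2 or Klf4 hold down, 1 rose and 0 fell, where 2.16% of all genes tested rose, and their median was -0.06. Ccl2, the chemokine that draws monocytes, rose from 0.676 ± 0.276 to 5.96 ± 4.02 CPM (3.10 ± 0.57, edgeR adjusted p 0.0296), in whole lung where macrophages are another source. Its call was lost by limma-voom (0.110), without the filter on low counts (0.0557), and without any 1 naive lung or injured replicate 1 (0.0671 to 0.142). Angpt2, a destabiliser of vessels, lay on the other side, at 34.7, 34.6 and 30.8 CPM in the naive group and 24.5, 22.5 and 26.1 CPM in the injured group (-0.45 ± 0.10, adjusted p 0.0503; DESeq2 0.00839). It was named after its value was seen. With DESeq2's size factors edgeR called Angpt2 lower (adjusted p 0.0470), as it did with a filter of 1 CPM in 3 libraries (0.0484). The same held without naive replicate 3 (0.0419) and without the filter on low counts (0.0295). In that unfiltered fit 0 of the 7 were called higher and 1 lower.

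Nos3 (chromosome 5, 24364810 to 24384474, plus strand), endothelial nitric oxide synthase, had 8.23, 8.46 and 14.8 CPM in the naive group and 11.96, 11.2 and 16.6 CPM in the injured group. Replicate 3 was the highest in each group, the groups overlapped, and the log2 fold change was 0.33 ± 0.26 (95% interval -0.26 to 0.92, adjusted p 0.593). The gene is covered by 160 to 507 counts per library. Its exons share 294 bases with Atg9b on the other strand, which held 124 counts in all against 1800 for Nos3, and 1040 bases with Gm15587, which held 11. The sign of Nos3 was thus opposite to that of Klf2 and Klf4, but its interval covers 0, and the difference between these genes was not tested.

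Elsewhere in the nitric oxide pathway, 3 of 18 genes tested rose and 2 fell, where 2.16% of all genes tested rose and 0.956% fell. All 3 that rose encode enzymes that use arginine. Arg1, the arginase of alternatively activated macrophages, went from 2.55, 2.64 and 1.90 CPM in naive to 74.7, 61.9 and 119 CPM in the injured group (5.19 ± 0.31, edgeR adjusted p 0.000596). Nos2, the inducible synthase, rose from 5.23 ± 1.18 to 11.5 ± 3.46 CPM (1.14 ± 0.25, edgeR adjusted p 0.0458), and Arg2, the mitochondrial arginase, from 5.06 ± 1.20 to 10.002 ± 1.13 CPM (0.97 ± 0.20, edgeR adjusted p 0.0319). The 2 that fell act downstream of nitric oxide and were named after their values were seen. Pde5a, which degrades cyclic GMP, had 317, 406 and 404 CPM in the naive group and 274, 236 and 248 CPM in the injured group (-0.57 ± 0.12, edgeR adjusted p 0.0300). Gucy1a3 (Gucy1a1), the alpha chain of the nitric oxide receptor guanylate cyclase, had 340, 322 and 362 against 267, 256 and 250 CPM (-0.40 ± 0.09, edgeR adjusted p 0.0354). Its partner chain Gucy1b3 stood at 224 ± 19.2 and 176 ± 11.7 CPM (-0.35 ± 0.10, adjusted p 0.0902; DESeq2 0.0211). Without 1 library, the adjusted p reached 0.148 for Nos2, 0.140 for Arg2 and 0.138 for Pde5a, and for Gucy1a3 it was 0.0611 to 0.114 whichever library was left out. Only Arg1 kept its call in this pathway with any 1 library left out, at up to 0.0117. Smooth muscle, which uses these downstream genes, had the negative median given above. Its part in their values was not tested.

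**Figure D5:**
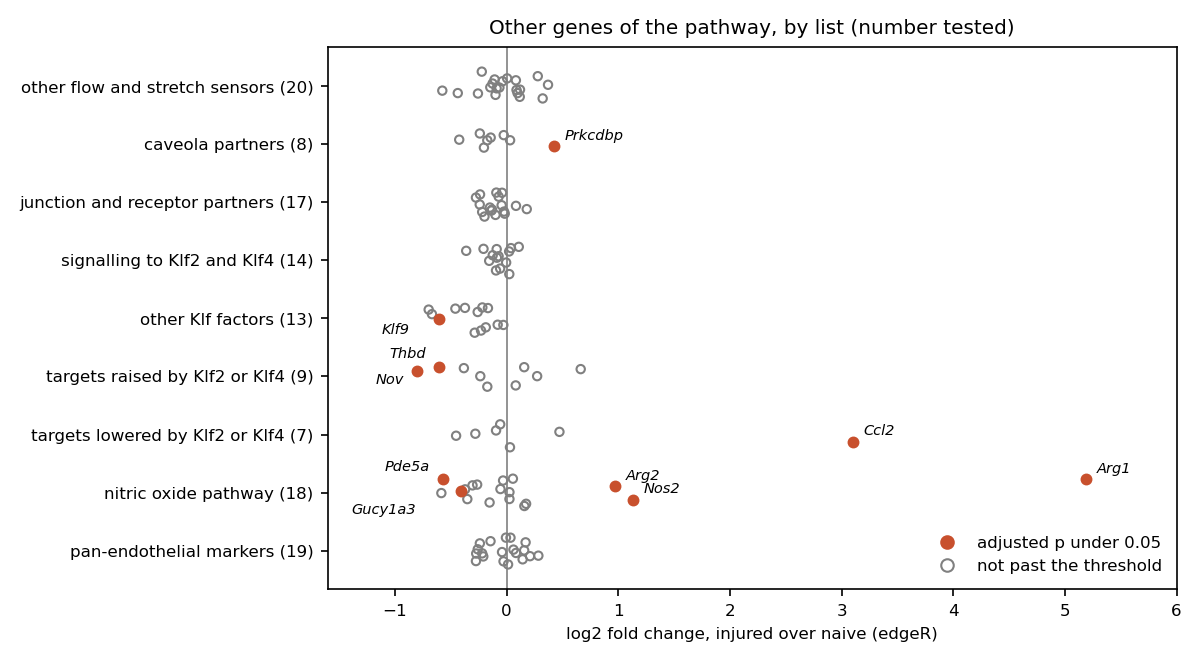
Log2 fold change (horizontal axis, injured over naive, edgeR) of every tested gene of 8 pathway and family lists and of the 19 pan-endothelial markers; vertical spread within a list has no meaning. Filled orange points have an adjusted p under 0.05 and are named; Arg1, at 5.19, lies farthest from 0.

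Counted once each, 124 other pathway, family and response genes were tested, of which 5 rose and 6 fell, beside 2.16% and 0.956% of all genes. Of these 11 calls, 2 (Arg1 and Ctgf) were kept with any 1 library left out and 9 were lost with at least 1. The lists were chosen with earlier results of these data known, and the counts describe them only.

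Endothelial subtypes were set beside the 10 genes as well. Lists of 5 aerocyte, 5 general capillary, 5 arterial, 5 venous and 6 lymphatic endothelial markers gave 0 calls each by edgeR and limma-voom. At an unadjusted p under 0.05 there were 2, 1, 2, 0 and 3. DESeq2 called 1 arterial marker higher, and 1 lymphatic marker in each direction. The arterial marker was Gja5, given above among the genes that Klf2 and Klf4 raise. Other genes also stand on more than 1 list, among them Kdr, Ptprb, Esam, Cldn5, Tek and Vwf, so the lists are not independent. The most abundant aerocyte genes were Tbx2, at 422 ± 27.9 CPM in the naive group and 352 ± 46.5 CPM in the injured group, and Ednrb, at 168 ± 26.3 and 164 ± 15.6 CPM. General capillary genes were led by Plvap, at 698 ± 86.5 and 667 ± 157 CPM, and Cd93, at 674 ± 124 and 722 ± 4.14 CPM. Among arterial genes Efnb2 stood at 347 ± 11.9 and 410 ± 43.1 CPM, above all naive lungs in each injured lung (0.24 ± 0.10, adjusted p 0.260). Venous Vwf stood at 693 ± 20.4 and 766 ± 219 CPM, and lymphatic Lyve1 at 464 ± 27.6 and 273 ± 80.3 CPM (-0.76 ± 0.20, adjusted p 0.0973), lower in each injured lung. DESeq2 called Lyve1 lower (adjusted p 0.00146), as did edgeR without injured replicate 1 (0.0339) or injured replicate 3 (0.0449). Apln and its receptor gene Aplnr, named after their values were seen, were lower in each injured lung, at 79.2 ± 40.9 against 34.3 ± 8.13 CPM and 110 ± 8.63 against 48.3 ± 23.7 CPM, with adjusted p values of 0.247 and 0.200. Without injured replicate 3 edgeR called Aplnr lower (-1.63, adjusted p 0.0135). Platelets, which carry Pecam1, had 6 markers measured, of which 1 rose, Pf4, from 6.31 ± 0.88 to 20.4 ± 7.47 CPM (edgeR adjusted p 0.0105). Its call was lost without naive replicate 2 (0.0618) or naive replicate 3 (0.0611). Ppbp, the next most abundant, stood at 8.67 ± 7.01 CPM in the naive group and 13.1 ± 4.65 CPM in the injured group, with overlapping groups (edgeR adjusted p 0.738). Of the 6 log2 fold changes 2 were negative. The part of platelets in the Pecam1 values was not tested.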

How the data were processed

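RNA of 3 naive and 3 injured whole left lungs was sequenced as paired-end reads on an Illumina NovaSeq instrument, per the labels' protocols. The authors deposited 1 table with whole-number read counts per gene, normalized counts (a signal that is each library's counts over its own factor, to a relative deviation under 1e-06), FPKM values, gene lengths (treated here as a score), and the results of their own comparison (log2 fold change, p-value, adjusted p-value). Per the submitters' processing notes the build was mm10 and the tools included STAR, HTSeq, DESeq2, edgeR and STAR-Fusion; for their versions and settings, and for strand, nothing is given in the sources used here.

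Counts were used as deposited. Genes passing edgeR's filterByExpr (15486 of 23194) were scaled by TMM and tested by edgeR's quasi-likelihood F test in its robust form, with group as the only term (edgeR 4.0.16, limma 3.58.1, R 4.3.3). Tests were two-sided, with Benjamini-Hochberg adjustment over all genes tested and a threshold of 0.05. CPM values use TMM-adjusted library sizes. The standard error of a log2 fold change is its size divided by the square root of F, and intervals use edgeR's degrees of freedom. Relative levels are log2 CPM with a prior count of 0.5. Each sample was the whole left lung of a mouse and carries its own label. The labels do not give operating days, and p-values measure the spread between these lungs. No 2 libraries were identical (chi-square per degree of freedom 13.3 to 77.4).

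Alternatives were scaling by DESeq2's size factors or by library size only, testing unfiltered genes, a filter of 1 CPM in 3 libraries, DESeq2 1.42.0, limma-voom, the replicate number as a block, and each library left out. Relative levels were also taken with the median of the markers and with a prior count of 2. The 10 genes and all lists were chosen with earlier results of these data known. Genes named are the 10; for each other list up to 3 called genes with the largest change at 1 CPM or more, or the 2 most abundant where none was called; for cell types the 2 most abundant and the called gene with the largest change; and the 3 nearest patterns of 4 genes, of which 1 is not reported here. Of the identifiers 98.9% were in GENCODE M21, which gave the exon overlaps, and 7 of the 10 genes have the same coordinates there. On simulated counts for this comparison, with 15324 genes tested, edgeR found 77 of 100 genes given a log2 change of 1 and 97 of 100 given one of 2, and 13 of 187 calls were false (6.95%). Promoters of Nos3, Pecam1 and Cdh5 were not used here.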

Additional observations from a re-analysis of the deposited data

How the results depend on the processing

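Most values kept their direction and side of the threshold. Of the 11 calls among the other pathway, family and response genes, however, 9 were lost with at least 1 library left out. Among all genes, the number called higher was 334 and became 585 with DESeq2 and 145 to 333 with 1 library left out. The number called lower was 148 and became 269 without a filter, 417 with DESeq2 and 48 to 146 with 1 library left out. Of the 10 genes 0 were called lower, 2 with DESeq2 and 0 to 1 with 1 library left out (Klf2, without naive replicate 1). Of the other pathway genes 5 were called higher, 2 with limma-voom and 1 to 3 with 1 library left out, and 6 lower, 12 with DESeq2 and 1 to 3 with 1 library left out. Leaving a library out leaves fewer samples; the cause of the other shifts was not tested.

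With the replicate number as a block, 2 of the 10 genes were called lower, Klf2 (-0.83, adjusted p 0.0325) and Klf4 (-0.60, adjusted p 0.0108), where 1.34% of all genes were called lower. The numbers are not shown to pair the lungs: deviations from the group means of same-numbered lungs correlated at 0.0700, -0.0801 and 0.142, and not every lung correlated best with its own number.

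With 1 library left out the sign of some log2 fold changes turned, over ranges of -0.0550 to 0.136 for Piezo1, -0.124 to 0.299 for Trpv4, -0.00647 to 0.334 for Kcnj8, -0.382 to 0.480 for Kcnj11, -0.120 to 0.0503 for Ptprb, -0.160 to 0.0637 for Ednrb, -0.0382 to 0.227 for Cd93, -0.252 to 0.0907 for Plvap, -0.270 to 0.176 for Slc6a2, -0.243 to 0.00956 for Flt4 and -0.139 to 0.0180 for Ager. Relative to endothelial markers the ranges were -0.00417 to 0.162 for Piezo1, -0.102 to 0.378 for Trpv4, -0.00731 to 0.369 for Kcnj8 and -0.161 to 0.0201 for Cav1. Relative to pericyte markers, Kcnj8 was at -0.0110 with the median as reference. Low counts of Trpv4, Kcnj8 and Nos3 and the 3 lungs a group limit precision.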
